A study of Mus musculus with 8 samples.

Results

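The comparison asked what overexpression of THOC5 does to the transcriptome of smooth muscle cells that are kept in growth medium, without a calcifying stimulus. It used 4 of the 8 libraries of the series, which were the 2 libraries of cells overexpressing THOC5 and the 2 of cells overexpressing green fluorescent protein (GFP), all in growth medium. Every gene of the table was included, and 22575 of 27249 genes held at least 1 normalized count in at least 2 of the 8 libraries and were tested. A normalized count is the read count of a gene divided by a size factor for the library. All libraries came from primary mouse vascular smooth muscle cells, which contract the artery wall. The control cells carry the genotype label WT and overexpress GFP, and the other cells carry the label THOC5 overexppression. The remaining 4 libraries are the same pair of cell kinds in osteogenic medium, which the series design gives as inorganic phosphate for 6 days. The labels do not give the vector, the promoter or the species of the transgene, nor the level of THOC5 protein. They also do not say that the replicates were separate cultures, so p-values measure the spread between libraries, which may be technical.

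THOC5 is a subunit of the THO complex, which forms the core of TREX, the complex that joins nascent mRNA to its export from the nucleus. THO travels with RNA polymerase II, recruits the helicase DDX39B and adaptors such as ALYREF, and these hand the packaged mRNA to the export receptor formed by NXF1 and NXT1. In smooth muscle, phosphate-rich medium is a standard model of arterial calcification, in which cells lose contractile genes and may take up bone-like ones.

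The 4 growth-medium libraries held between 7058681 and 10450335 recovered reads, fewer in both GFP libraries than in both THOC5 libraries. Mitochondrial genes took 2.22% to 2.36% of reads, and CT010467.1, a gene of ribosomal RNA, held 3.66% and 1.54% of reads in GFP cells and 4.59% and 6.27% in THOC5 cells. Across genes, log2 values of replicates correlated at 0.978 in GFP cells and 0.983 in THOC5 cells, and libraries of different groups correlated at 0.979 to 0.982. The 8 smooth muscle markers were all detected and summed to 25072 to 32192 normalized counts. Adventitial fibroblast markers summed to 15109 to 19887, most of it Dcn, which smooth muscle cells also express. Macrophage markers summed to 950 to 1234, with Adgre1 and Itgam at 0 in every library and Ptprc at no more than 1.17. Endothelial markers summed to 93.1 to 140, and erythroid markers to 4.66 to 11.6.

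Thoc5 was the 1 gene that passed, and it was higher in THOC5 cells. Thoc5 (chromosome 11, 4895320 to 4928867, plus strand, GENCODE M21 on GRCm38) stood at 458 and 471 normalized counts in the GFP libraries and at 2155 and 1406 in the THOC5 libraries. Both THOC5 libraries lay far above both GFP libraries, and they also differed from each other more than the GFP libraries did. The difference was 1.90 ± 0.15 on the log2(normalized count + 1) scale (estimate ± SE, n = 2 libraries a group), a 3.74-fold higher level with a 95% interval of 1.56 to 2.24 on the log2 scale (limma, adjusted p = 0.00187). No gene passed as lower, and the gene with the next smallest p had an adjusted p of 0.906. With 2 libraries a group, a gene that did not pass is not shown to be unchanged. Thus 0.00443% of genes tested were called, at 0.00443% higher and 0.0% lower. At an unadjusted p below 0.05 there were 1152 genes, 5.1% of those tested, of which 561 were higher (2.49%) and 591 lower (2.62%) in THOC5 cells.

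In the authors' deposited table, Thoc5 was likewise the 1 gene called, with a log2 fold change of 1.94, a standard error of 0.163 and an adjusted p of 4.59e-28. The next lowest adjusted p in the authors' deposited table was 0.109, and 214 genes had an unadjusted p below 0.05. The limma call of Thoc5 used the spread of all 8 libraries. Leaving out any 1 of the 4 osteogenic libraries gave an adjusted p for Thoc5 between 0.0574 and 0.0799 and no call, and a fit of the 4 growth-medium libraries alone gave 0.934, with the same log2 difference each time.

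The 13 other genes within 200 kb of Thoc5 did not pass. The 8 of them with a mean of at least 50 normalized counts differed by -0.13 to 0.07 on the log2 scale. Nipsnap1, the nearest upstream gene, stood at 179 and 145 in GFP cells and 147 and 147 in THOC5 cells. A processed pseudogene, AA413626, lies within Thoc5 and stayed at 2.66 to 9.32 normalized counts in these libraries. AA413626 and Thoc5 are both on the plus strand, so strand would not part their reads. The library kit does not mark strand, so it also cannot part reads of genes that overlap on opposite strands.

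**Figure D1:**
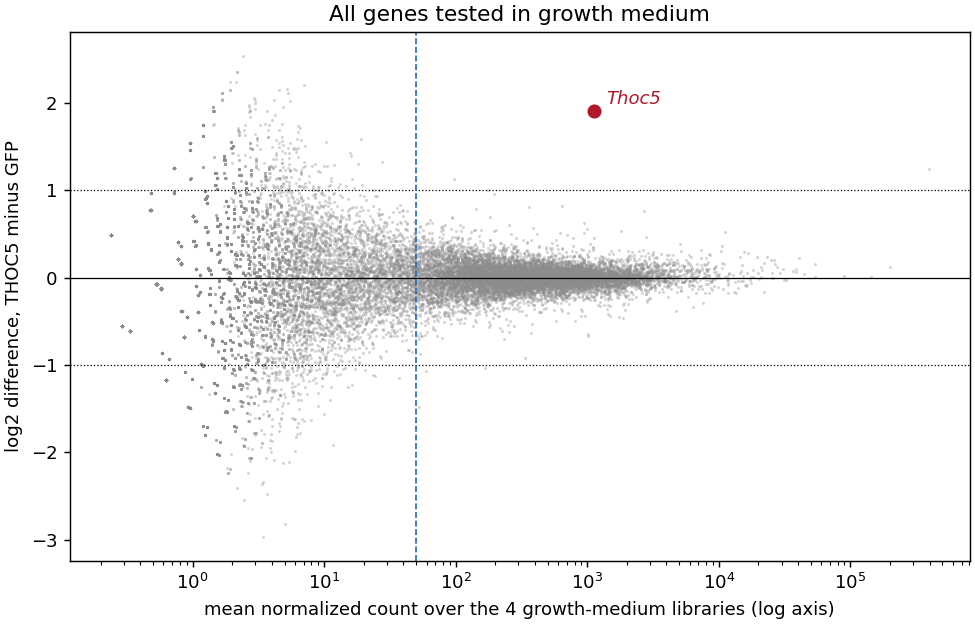
Each grey point is 1 gene, placed by its mean normalized count over the 4 growth-medium libraries (log axis) and by its log2 difference, THOC5 minus GFP. Thoc5, in red at 1.90, stands apart from the other well-expressed genes to the right of the dashed line at 50 counts, and the dotted lines mark a 2-fold difference. The spread widens to the left, where counts are low.

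The rest of the THO and TREX complex did not follow Thoc5. Of 16 listed genes 14 were tested, and the other 13 differed by -0.16 (Thoc1) to 0.16 (Sarnp). All 13 had 95% intervals within 2-fold in either direction, with outermost bounds of -0.40 and 0.42. Thoc1, whose protein forms the THO core with THOC2, stood at 508 and 491 in GFP cells and 460 and 433 in THOC5 cells. Thoc2, the scaffold of THO, stood at 911 and 1050 in GFP cells and at 895 and 873 in THOC5 cells. For both genes the THOC5 libraries lay below the GFP libraries by a small margin, and neither passed.

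Thoc7, whose protein pairs with THOC5 in a coiled coil, stood at 283 and 296 in GFP cells and 272 and 291 in THOC5 cells. Thoc3 stood at 181 and 215 against 185 and 203, and Thoc6 at 135 and 136 against 118 and 144. In these 3 genes the groups overlapped. Among the adaptors, Alyref stood at 395 and 396 in GFP cells and 384 and 428 in THOC5 cells, and the helicase gene Ddx39b at 1481 and 1401 against 1517 and 1458. Both groups overlapped again. Poldip3, an export adaptor, stood at 1172 and 1163 in GFP cells and 1299 and 1297 in THOC5 cells, so its groups did not overlap, at a log2 difference of 0.15 that did not pass. Over all genes tested, both THOC5 libraries lay above both GFP libraries for 14.7% and below them for 16.5%. For genes with a mean of at least 50 normalized counts, as all 14 here had, the shares were 17.0% and 13.9%. In this list it was 3 of 14 above, Thoc5 among them, and 2 of 14 below.

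**Figure D2:**
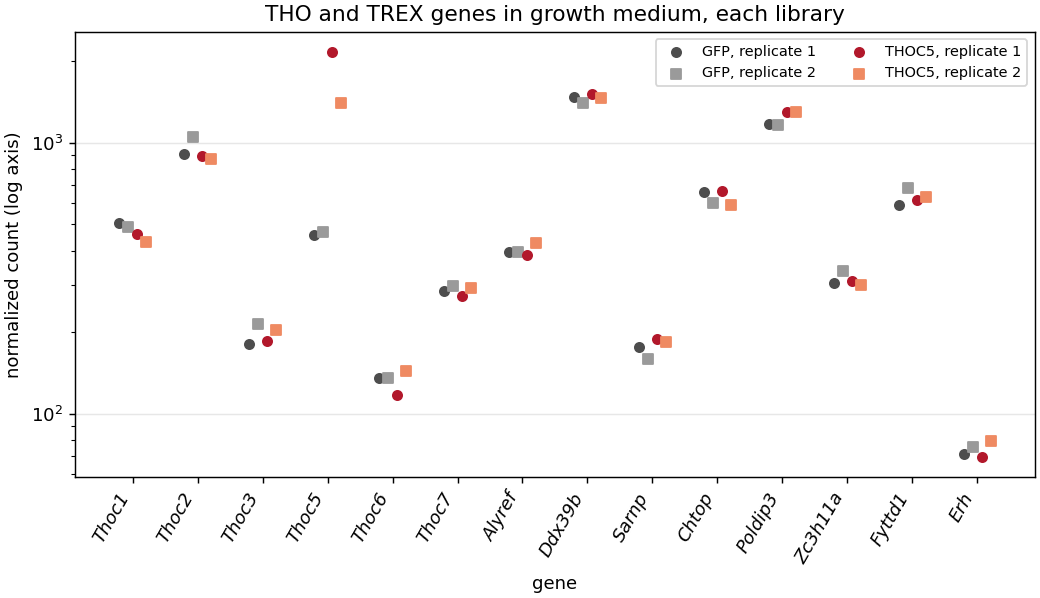
Normalized counts (log axis) of the 14 tested THO and TREX genes in each growth-medium library, with GFP in grey, THOC5 in red, circles for replicate 1 and squares for replicate 2. Thoc5 is separated between the groups (458 and 471 against 2155 and 1406), while the points of the other genes lie together.

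The machinery around TREX was as close. None of 23 mRNA export receptor and nuclear pore genes passed, and their differences ran from -0.20 (Nxt2) to 0.18 (Eny2), with all 23 intervals within 2-fold. Nxf1, the bulk mRNA export receptor, stood at 1002 and 993 in GFP cells and 940 and 970 in THOC5 cells. None of 30 mRNA decay genes (-0.22 to 0.23) and none of 21 spliceosome and hnRNP genes (-0.14 to 0.09) passed. The medians of the 3 lists were 0.0025, 0.01 and -0.01, beside -0.0030 for all genes tested.

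How small a difference the comparison could show depended on the level of the gene. The SE and intervals here use the spread of all 8 libraries, not of the 4 growth-medium libraries alone. For the 10629 genes with a mean of at least 50 normalized counts, the median SE was 0.118 on the log2 scale, and for 10534 of them (99.1%) the 95% interval of the difference lay within 2-fold in either direction. For 9328 of them (87.8%) it lay within 1.5-fold. Among the 2613 genes with a mean of 10 to 50, the interval lay within 2-fold for 47.9%, and among the 9333 genes under 10 it did so for 0.311%. In the well-expressed set, 7 genes differed by more than 2-fold, and none of them but Thoc5 passed. Of these, 4 were higher in THOC5 cells (Thoc5, CT010467.1, Nkd1 and Scg2) and 3 lower (Gipr, Gpr35 and Gm10800). The groups overlapped in Gipr, which stood at 30.3 and 87.7 in GFP cells and 2.90 and 89.8 in THOC5 cells. Between the 2 GFP replicates 27 of these genes differed by more than 2-fold, and between the 2 THOC5 replicates 32 did. The median absolute log2 difference was 0.0808 between the groups, 0.127 between the GFP replicates and 0.129 between the THOC5 replicates. The group values average 2 libraries each and the replicate values do not.

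No contractile gene passed. The list held 30 genes, of which 8 lay above both GFP libraries in both THOC5 libraries and 0 lay below, beside 14.7% above and 16.5% below among all genes tested. Its median was 0.09, and it was 0.02 when libraries were scaled to their totals and 0.04 without the second GFP library. Scaling to totals moved the median of all genes tested from -0.0030 to -0.07, so list medians under it are read beside that value. Acta2, which encodes smooth muscle actin, stood at 23089 and 19635 in GFP cells and 25293 and 25005 in THOC5 cells, a log2 difference of 0.24 with a 95% interval of -0.02 to 0.50. Both THOC5 libraries were above both GFP libraries, and the interval crossed 0. Myh11, the smooth muscle myosin heavy chain, stood at 140 and 109 in GFP cells and 131 and 158 in THOC5 cells, and these groups overlapped.

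Mylk, the myosin light chain kinase, had the largest difference of the named contractile genes apart from Itga8. Its values were 908 and 592 in GFP cells and 1076 and 1193 in THOC5 cells, 1.55-fold higher (log2 0.63, 95% interval 0.23 to 1.02, limma adjusted p = 0.906). Tagln, the actin-binding protein SM22, stood at 605 and 424 in GFP cells and 712 and 609 in THOC5 cells, a log2 difference of 0.38 with an interval of 0.04 to 0.72. For both genes the second GFP library was the lowest of the 4. Cnn1, or calponin, stood at 1482 and 1365 in GFP cells and 1555 and 1683 in THOC5 cells, and its interval crossed 0. The transcription factors of the contractile programme were level, with Srf at 989 and 766 in GFP cells against 839 and 914, and Myocd at 10.5 and 14.6 against 12.6 and 13.4.

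Bone and cartilage regulators did not pass either. Runx2, the master regulator of osteoblast fate, stood at 797 and 723 in GFP cells and 830 and 648 in THOC5 cells, so that the THOC5 libraries bracketed the GFP libraries. Sox9, the chondrocyte regulator, stood at 125 and 238 in GFP cells and 143 and 147 in THOC5 cells. Sp7 had 2.33 and 2.66 normalized counts in GFP cells and 0.965 and 0 in THOC5 cells, which is under the level that 3 reads give, so no fold is given. Msx2, a homeobox factor of bone, stood at 32.6 and 42.5 in GFP cells and 20.3 and 32.5 in THOC5 cells, with the groups apart by a margin smaller than either group's spread. The list of 18 tested osteochondrogenic genes had 4 above and 5 below (14.7% and 16.5% of all genes tested), and a median of -0.01.

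Effectors of mineralisation were also near level. Alpl, the alkaline phosphatase that removes the mineralisation inhibitor pyrophosphate, stood at 61.8 and 63.8 in GFP cells and 65.6 and 78.3 in THOC5 cells. Spp1, which encodes osteopontin, stood at 299 and 234 in GFP cells and 292 and 311 in THOC5 cells. Slc20a1, a phosphate importer, stood at 428 and 340 in GFP cells against 396 and 322. The groups overlapped in Spp1 and Slc20a1 and were adjacent in Alpl.

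Among inhibitors of calcification, Mgp, the matrix Gla protein, stood at 5174 and 4037 in GFP cells and 5716 and 5590 in THOC5 cells, a log2 difference of 0.31 with an interval of 0.07 to 0.54. Enpp1, which makes pyrophosphate, stood at 19.8 and 23.9 in GFP cells and 16.4 and 8.60 in THOC5 cells, with an interval of -1.62 to -0.02. Neither passed. Bmp2 was near the floor, at 1.17 to 5.79, while Bmp4, a related ligand, stood at 737 and 713 in GFP cells and 854 and 868 in THOC5 cells. Of the 15 contractile and calcification genes chosen by name, 10 had intervals within 2-fold in either direction and 5 did not, and their adjusted p ran from 0.906 to 0.992.

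**Figure D3:**
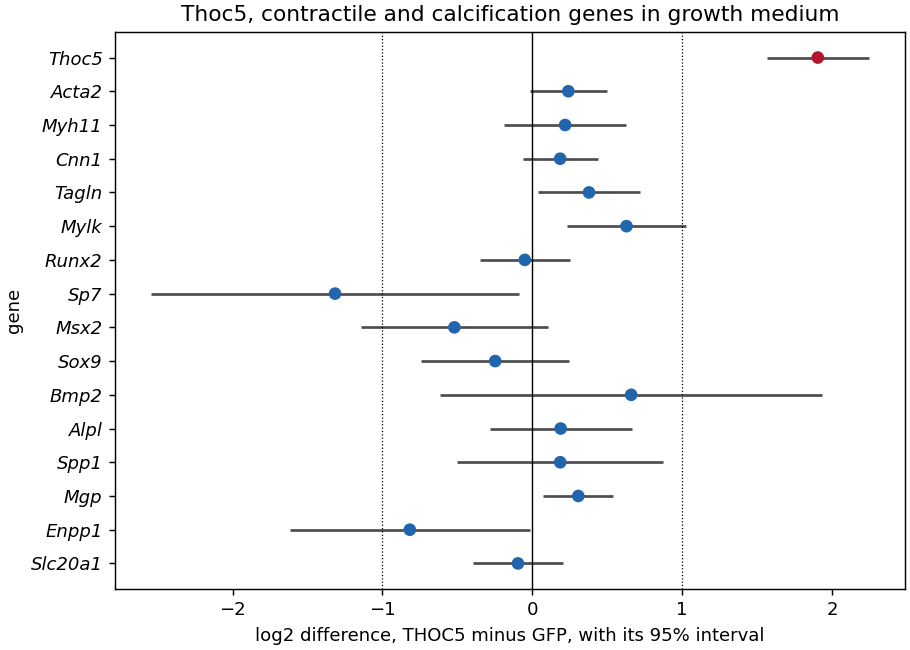
Log2 difference, THOC5 minus GFP, in growth medium with its 95% interval for Thoc5 (red) and 15 contractile and calcification genes (blue), with dotted lines at 2-fold. Only Thoc5, of the genes drawn, lies wholly beyond 2-fold, and the widest intervals are those of Sp7 and Bmp2, whose counts are near the floor.

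The genes with higher values in THOC5 cells are given here as values that did not pass. By the rule for naming genes, 14 followed Thoc5, with folds of 1.23 to 2.18, SE of 0.07 to 0.21 on the log2 scale and a limma adjusted p of 0.906 for each. Nkd1, which encodes an inhibitor of Wnt signalling, stood at 62.9 and 57.2 in GFP cells and 116 and 151 in THOC5 cells, a log2 difference of 1.13. Gdf6, a BMP-family ligand, stood at 132 and 133 in GFP cells and 247 and 270 in THOC5 cells, a log2 difference of 0.96. Scg2, which encodes a secretory granule protein, stood at 134 and 99.7 in GFP cells and 246 and 220 in THOC5 cells, a log2 difference of 1.00. For these 3 genes the THOC5 libraries were about 2-fold above the GFP libraries, with no overlap.

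Sfrp2, a secreted Wnt-binding protein, stood at 113 and 97.0 in GFP cells and 173 and 191 in THOC5 cells. Itga8, an integrin subunit typical of smooth muscle, stood at 329 and 199 in GFP cells and 455 and 447 in THOC5 cells. Islr, an immunoglobulin-superfamily protein of mesenchymal cells, stood at 614 and 546 in GFP cells and 765 and 862 in THOC5 cells. In each gene the groups were apart, as the rule required. Ephb2, an ephrin receptor, stood at 273 and 275 in GFP cells and 380 and 360 in THOC5 cells, and Tmsb4x, an actin-sequestering protein with many processed copies in the genome, at 1978 and 1923 against 2355 and 2431. Cry1, a repressor of the circadian clock, stood at 126 and 102 in GFP cells and 179 and 154 in THOC5 cells. The others were Dpysl3, Pcdhb5, Sat2, Gatb and Mrpl52.

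Wnt pathway genes as a list had a median of 0.15 over 30 tested members, with 12 above and 2 below (14.7% and 16.5% of all genes tested). The median was 0.09 with libraries scaled to totals (-0.07 for all genes tested) and 0.10 without the second GFP library. Sfrp1, a relative of Sfrp2, stood at 609 and 520 in GFP cells and 694 and 736 in THOC5 cells. Wnt5a stood at 892 and 1077 in GFP cells and 1131 and 1088 in THOC5 cells, with the groups close together, and Axin2, a feedback target of the pathway, was at 2.33 to 4.83 in all 4 libraries. No Wnt gene passed.

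Matrix genes were mostly higher by small amounts, and none passed. Among all genes tested 14.7% lay above and 16.5% below. Collagens had 11 of 22 above and 0 below, with a median of 0.15. It was 0.09 with libraries scaled to totals (-0.07 for all genes tested) and 0.08 without the second THOC5 library. That library alone lay above both GFP libraries for 20 of the 22, and the first THOC5 library for 11. Col5a2 stood at 7557 and 7616 in GFP cells and 8974 and 9334 in THOC5 cells, whereas Col1a1, the main collagen of bone and adventitia, stood at 20937 and 25031 against 22709 and 30567 and overlapped. Proteoglycans had 9 of 16 above, with the largest difference in Lum, which encodes lumican and stood at 540 and 400 in GFP cells and 768 and 883 in THOC5 cells, a log2 difference of 0.83. Elastic fibre and matricellular genes had 11 of 26 above and 2 below. Matrix proteases and their inhibitors had 12 of 29 above and 4 below. Their median was 0.05 as normalized and -0.0028 with libraries scaled to totals, beside -0.0030 and -0.07 for all genes tested. Complement and acute phase genes had a median of 0.22, with 12 of 21 above and 1 below. It was 0.37 without the first GFP library and 0.14 without the second, and the first library was above the second in both groups for 13 of the 21 genes (61.9%, against 27.2% of all genes tested). C3, the central complement protein, stood at 15924 and 14017 in GFP cells and 18485 and 17970 in THOC5 cells. The summed adventitial fibroblast markers were 17525 and 15109 in GFP cells and 19887 and 19141 in THOC5 cells, and the summed smooth muscle markers 29288 and 25072 against 31451 and 32192. The part of cell composition in these values was not tested, and in bulk RNA more cells of a type cannot be told apart from more RNA per cell.

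The genes with lower values in THOC5 cells included some of the antiviral response. By the same rule 15 genes were named, with GFP over THOC5 folds of 1.23 to 2.09, SE of 0.08 to 0.26 and a limma adjusted p of 0.906 for each. Of the 15, 6 stand in the interferon or antigen presentation lists, which hold 45 and 20 of the 22575 genes tested. The lists were chosen with earlier results of these data known. Interferon-stimulated genes encode antiviral proteins and are switched on by the factor ISGF3 through a motif called the interferon-stimulated response element. Irf7, a transcription factor that amplifies the interferon response, stood at 632 and 713 in GFP cells and 543 and 417 in THOC5 cells, a log2 difference of -0.49. Oas2 and Oas3 make the messenger that activates RNase L. Oas2 stood at 430 and 477 in GFP cells and 339 and 250 in THOC5 cells, and Oas3 at 281 and 335 against 229 and 174. In each of these genes the second THOC5 library was the lowest of the 4.

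Ifi207, one of the DNA-sensing p200 family, stood at 237 and 342 in GFP cells and 214 and 141 in THOC5 cells, and its neighbour Ifi208 at 15.1 and 17.3 against 5.79 and 6.69. H2-K1, a class I antigen-presenting molecule, stood at 2114 and 2257 in GFP cells and 1727 and 1665 in THOC5 cells, and H2-Q7 at 66.4 and 69.1 against 37.7 and 47.8. For these 4 genes the groups did not overlap. Members of the Oas, p200 and H2 families share long similar stretches, and how multiply matching reads were counted is not given in the sources used here, so the split between copies is uncertain.

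Oas3, Ifi207 and Ifi208 are shown with the stretch of promoter that holds the response element, as examples of interferon genes that hold the motif. The sequences are from RefSeq (GRCm38.p6), each 80 bases 5′ to 3′ on the strand of the gene, taken from a window of 250 bases before to 50 after its start. Capitals mark GAAANNGAAA, the motif searched on both strands, where N is any base. The stretches lie at chr5:120777690-120777769 (minus strand, Oas3), chr1:173741810-173741889 (minus strand, Ifi207) and chr1:173673572-173673651 (plus strand, Ifi208).
Oas3: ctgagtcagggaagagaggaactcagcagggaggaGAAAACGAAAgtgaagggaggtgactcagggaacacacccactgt
Ifi207: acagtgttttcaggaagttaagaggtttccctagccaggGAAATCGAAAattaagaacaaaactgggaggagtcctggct
Ifi208: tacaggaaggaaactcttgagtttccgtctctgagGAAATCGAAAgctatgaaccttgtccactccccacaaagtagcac
The motif was in 21 of the 34 interferon genes with a promoter in the RefSeq table (61.8%). It was in 1079 of all 27025 genes there (3.99%), or 1131 of 32851 promoters (3.44%). Antigen presentation genes held it in 5 of 17 (29.4%). Cytosolic ribosomal protein genes, a list with higher values in THOC5 cells, held it in 5 of 32 (15.6%). Of the 15 lower genes and Ifi208, 13 had a promoter in that table, and 4 of the 13 held the motif (30.8%), which were Oas3, Ifi207, Ifi208 and Apol9b. Ifi208 was counted because it was named from the interferon list, and its inclusion raises that share. A match is a description of the sequence, and no binding was measured.

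The interferon list had the lowest median of the 43 lists, -0.28 over 45 tested genes, beside -0.0030 for all genes tested. None of the 45 passed. Both THOC5 libraries lay below both GFP libraries for 28 of them (62.2%, against 16.5% of all genes tested) and above for 2, which were Isg20 and Ifi27. The second THOC5 library carried most of this. It was below both GFP libraries for 41 of 45 genes (91.1%, against 31.6% of all genes tested), and the first THOC5 library for 28 (62.2%, against 30.3%). The list's median was -0.12 without the second THOC5 library and -0.44 without the first.

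Rsad2, which encodes the antiviral protein viperin, stood at 358 and 497 in GFP cells and 329 and 150 in THOC5 cells. Ifit3 stood at 1111 and 1299 in GFP cells and 1104 and 531 in THOC5 cells. In both genes the first THOC5 library was just below the GFP values and the second was well below. Isg15, a ubiquitin-like modifier, stood at 582 and 630 in GFP cells and 540 and 463 in THOC5 cells. Summed over the list, counts were 36359 and 38620 in GFP cells and 35189 and 28434 in THOC5 cells. Summed macrophage markers were 1182 and 950 in GFP cells and 1234 and 1055 in THOC5 cells, with 2 of 10 markers in the table at 0 in every library. Of the 8 macrophage markers tested 4 had a log2 difference above 0 and 4 below, with a median of -0.02. The part of such cells in the interferon values was not tested.

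Other lists with lower values were small in size of difference. Antigen presentation genes had 8 of 20 below, 2 above and a median of -0.11, immediate early genes 10 of 24 below, 0 above and a median of -0.13, and p53 targets 9 of 24 below, 0 above and a median of -0.11, where 16.5% of all genes tested lay below and 14.7% above. The antigen presentation median was -0.04 without the second THOC5 library, which alone lay below both GFP libraries for 16 of 20 genes, against 8 for the first. The p53 median was -0.05 without the first GFP library. With libraries scaled to totals both medians were -0.17, beside -0.07 for all genes tested. No member of them passed. Klf4, an immediate early factor that represses contractile genes, stood at 1539 and 1591 in GFP cells and 1391 and 1078 in THOC5 cells. Mdm2, the p53-induced inhibitor of p53, stood at 2904 and 3491 in GFP cells and 2712 and 2651 in THOC5 cells. Fosl1, a subunit of AP-1, stood at 66.4 and 67.8 in GFP cells and 42.5 and 41.1 in THOC5 cells, with close replicates and a log2 difference of -0.67. Outside these lists, Ccl5, a chemokine, stood at 207 and 211 in GFP cells and 153 and 141 in THOC5 cells. Ptgs2, the inducible cyclooxygenase, stood at 1948 and 2381 in GFP cells and 1667 and 1475 in THOC5 cells. Gpr35, a receptor gene, had the largest log2 difference of the 15 lower genes, at 61.8 and 101 in GFP cells and 30.9 and 44.9 in THOC5 cells.

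Cytosolic ribosomal protein genes leaned the other way by a small and even amount. All 44 had a log2 difference above 0, between 0.02 and 0.34, and 37 of 44 (84.1%, against 14.7% of all genes tested) lay above both GFP libraries in both THOC5 libraries, yet none passed. The median was 0.14, and it was 0.08 with libraries scaled to totals (-0.07 for all genes tested) and 0.09 without the second GFP library. Rps14 stood at 5858 and 5438 in GFP cells and 6611 and 6710 in THOC5 cells, and Rplp0 at 6075 and 6024 against 6248 and 6730. Summed counts were 122458 and 115930 in GFP cells and 130280 and 131888 in THOC5 cells. Oxidative phosphorylation genes had 12 of 27 above (14.7% of all genes tested), 1 below and a median of 0.10. That median was 0.03 with libraries scaled to totals (-0.07 for all genes tested) and 0.06 without the second GFP library. Many ribosomal protein genes have processed pseudogenes, which can take up their reads.

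Several lists separated replicates rather than groups. The integrated stress response list, whose genes are induced by ATF4 when amino acids run short, was higher in the first library of both groups for 28 of 31 genes (90.3%, against 27.2% of all genes tested). Its median difference between replicates was 0.52 in GFP cells and 0.73 in THOC5 cells, while the median between groups was -0.06. Atf4 itself stood at 2827 and 1522 in GFP cells and 2863 and 1424 in THOC5 cells. Chac1, which degrades glutathione, stood at 368 and 79.8 in GFP cells and 363 and 58.3 in THOC5 cells. The first and second libraries thus differed severalfold in Chac1, and the groups did not.

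Mitosis and spindle genes went the opposite way. They were higher in the second library of both groups for 28 of 29 genes (96.6%, against 24.6% of all genes tested). Mki67, a marker of dividing cells, stood at 1277 and 1849 in GFP cells and 1249 and 1653 in THOC5 cells. Genes of G1/S and DNA replication did so for 26 of 32 (81.3%), hypoxia and glycolysis genes for 27 of 29 (93.1%), and cholesterol and fatty acid synthesis genes for 23 of 30 (76.7%). The labels name no batch for these libraries.

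**Figure D4:**
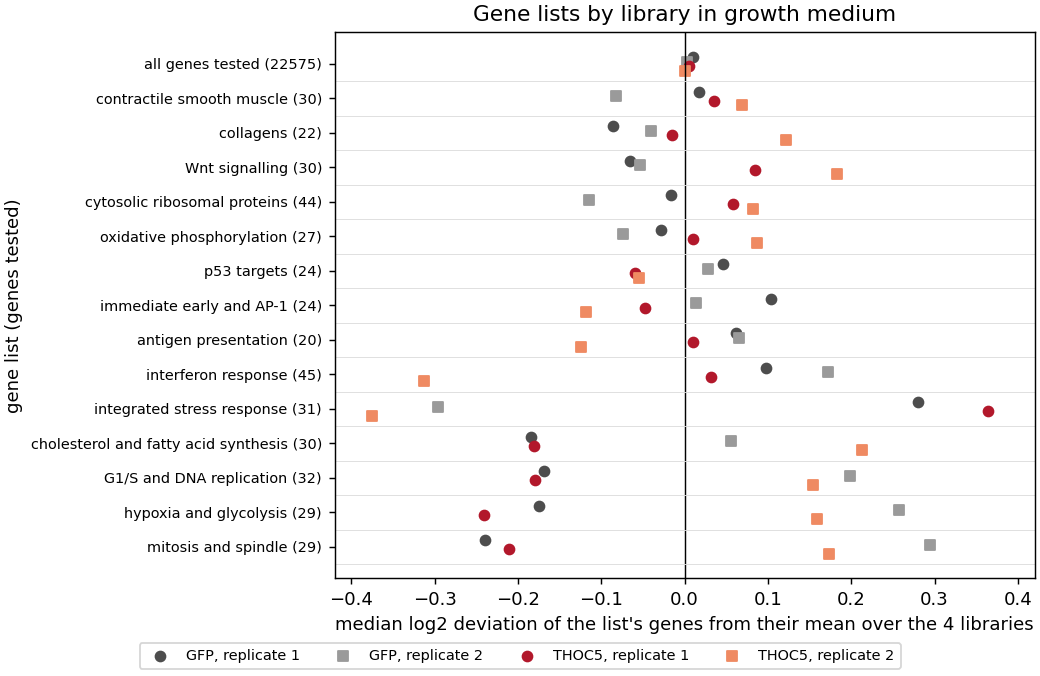
Median log2 deviation of the genes of each list from their own mean over the 4 growth-medium libraries, 1 point a library, with the number of genes tested in parentheses. Ribosomal protein genes part the groups by a small amount, the interferon list is lowest in the second THOC5 library (-0.31, beside 0.03 in the first), and the integrated stress response, cell cycle and hypoxia lists part the replicates of both groups.

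Over all 43 pathway lists, 42 had no member that passed in the main fit, which did not pair the libraries, and the THO and TREX list had Thoc5 alone. The median of 34 lists lay within 0.1 of 0 on the log2 scale, and 9 lay beyond it, in a range of -0.28 for interferon genes to 0.22 for complement genes. Of 22 listed histone genes 3 were found in the table, so that list says little. The calls depended on pairing. A fit of the 4 growth-medium libraries alone with a term for replicate number called 148 genes and changed the members called in 26 lists. That fit leaves 1 residual degree of freedom, and whether same-numbered libraries were handled together was not tested.

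The same groups of cells in osteogenic medium give a comparison that shares no library with this one, although the spread was pooled. There, 11.3% of genes tested passed as higher and 10.7% as lower in THOC5 cells. Thoc5 stood at 650 and 615 in GFP cells and 1780 and 1937 in THOC5 cells, a log2 difference of 1.55 (limma adjusted p = 5.24e-05). Its effect did not differ between the media by more than the spread (difference -0.35, limma adjusted p = 0.378). The difference of the THOC5 effect between the media passed for 2082 genes, 9.22% of those tested. Of these 1197 (5.3%) were higher and 885 (3.92%) lower in osteogenic than in growth medium, a split of 887 and 1381 when libraries were scaled to totals.

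The genes named in growth medium were followed in osteogenic medium. Of the 14 higher genes 13 were on the same side of 0 there (49.0% of all genes with a mean of at least 50 were above 0), 11 passed in the same direction and 1, Cry1, passed in the opposite one. Of the 15 lower genes 10 were on the same side (51.0% of that set were below 0), 6 passed in the same direction and 1, Oas2, in the opposite one. Among all genes with a mean of at least 50, 20.9% passed as higher and 19.2% as lower in osteogenic medium. The named genes were picked by a small p, so that set is not matched to them in spread. In osteogenic medium Gdf6 stood at 10.4 and 8.05 in GFP cells and 128 and 166 in THOC5 cells, and Scg2 at 6.05 and 6.26 against 103 and 124. Sfrp2 stood at 9.51 and 10.7 there in GFP cells and at 128 and 161 in THOC5 cells. These 3 genes were far lower in GFP cells in osteogenic than in growth medium, and their difference between THOC5 and GFP cells was larger there. For Ptgs2 the osteogenic values were 7076 and 6304 in GFP cells and 2116 and 1803 in THOC5 cells.

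Among genes with a mean of at least 50 normalized counts, Thoc5 aside, 226 had an unadjusted p below 0.05 and a higher value in THOC5 cells in growth medium. Of these 98 (43.4%) passed as higher in osteogenic medium, which is 4.40% of the 2225 that did, and 17 (7.52%) passed as lower. On the lower side 80 of 190 (42.1%) passed as lower, which is 3.91% of 2044, and 10 (5.26%) as higher. Of the whole well-expressed set, 20.9% passed as higher and 19.2% as lower in osteogenic medium. The fit gave each gene the same SE in both media, and a small SE lowers the p in both. The whole set is thus not matched in spread to genes picked by p. The labels do not say whether both media were given to the same preparation of overexpressing cells. The interferon list had a median of 0.02 in osteogenic medium. Of its 45 genes 4 passed there as higher and 7 as lower, beside 11.3% and 10.7% of all genes tested. The ribosomal protein list had a median of -0.03 there.

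**Figure D5:**
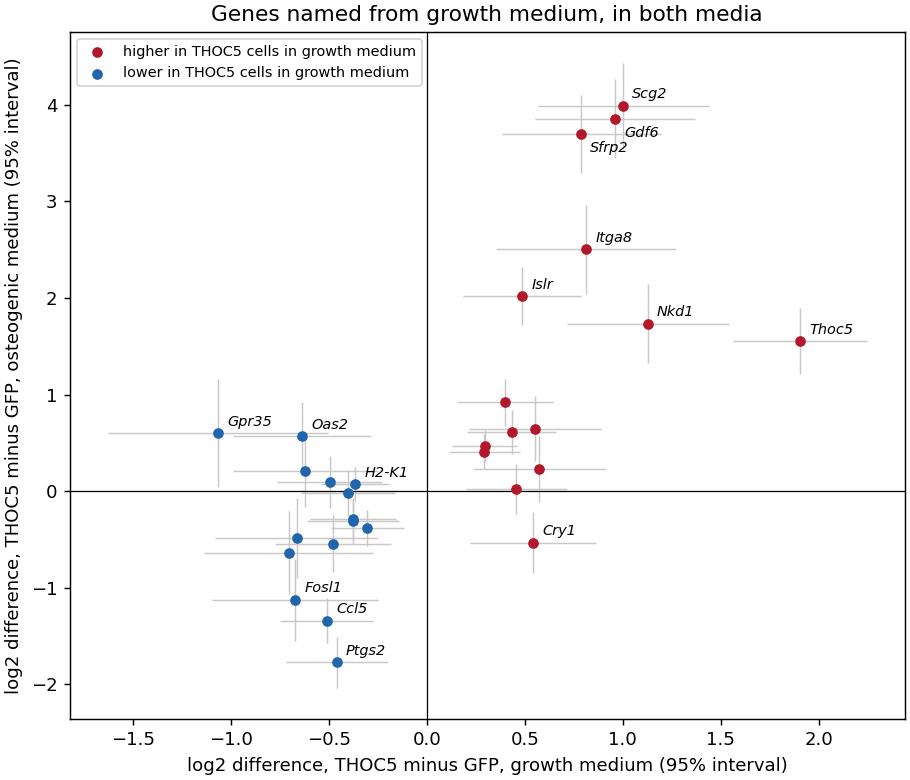
Log2 difference, THOC5 minus GFP, in growth medium (horizontal axis) and in osteogenic medium (vertical axis) for Thoc5 and the 29 named genes, with 95% intervals in grey. Points in red were higher and points in blue lower in THOC5 cells in growth medium, a placement that the naming rule fixes. Gdf6, Scg2 and Sfrp2 lie near 4 on the vertical axis, and Cry1 and Oas2 passed there on the other side of 0.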

How the data were processed

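Per the labels, libraries were made from total RNA with a TruSeq kit, which keeps no strand information. The authors deposited normalized counts, a signal of reads per gene divided by a size factor, as found from the values themselves: whole reads were recovered for 100% of values in every library, within 1e-06. The table also holds a log2 fold change, its standard error, a test score and p-values for each comparison, per the file headers. FastQC, Bowtie2, MACS2, SAMtools and mm10 are named without roles, per the submitters' processing notes, while the sources used here do not give how reads were counted or on which annotation. Columns were matched to samples by the labels' description field, 0 per-sample columns went unused, and RNA immunoprecipitation libraries were not analysed here.

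limma 3.58.1 (R 4.3.3) with its trend option was fitted to log2(normalized count + 1) for genes that reached 1 in 2 or more libraries. The fit held 8 libraries in 4 groups, which left 4 residual degrees of freedom, with Benjamini-Hochberg adjustment over all genes tested and a threshold of 0.05. Folds on this scale understate genes of low count. A count of 3 reads is worth 2.59 to 3.99 normalized counts, which covers counting error only. edgeR 4.0.16 and DESeq2 1.42.0 were run on recovered reads. The procedures were tested on simulated data.

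The members and lists were chosen with earlier results of these data known. Named genes were Thoc5, 15 contractile and calcification genes, up to 15 genes a direction with the smallest p (as only Thoc5 passed) whose groups did not overlap, with a mean of at least 50 and no predicted-model name, up to 3 genes of each list by p, and the 5 highest and 5 lowest genes for the difference between media. Other genes, printed as examples of their list, were chosen after their values were seen. Some named genes are not reported here. Alternatives changed the pseudocount, the filter, the scaling, the tool, the libraries in the fit and the replicate block. Gene positions are from GENCODE M21 and promoters from RefSeq.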

Additional observations from a re-analysis of the deposited data

Results flagged for a closer look

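The effect of THOC5 differed between the media for 2082 genes by the test of that difference in limma. Values below are log2 differences of the effect, osteogenic minus growth medium, for genes named above that passed it, and a positive value means that THOC5 cells stood higher against GFP cells in osteogenic than in growth medium.

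Contractile genes were positive, at 0.79 for Acta2, 1.32 for Myh11, 1.06 for Cnn1, 2.14 for Mylk and 1.69 for Itga8. Among mineralisation genes the values were 2.18 for Alpl, 1.31 for Mgp and -1.0 for Slc20a1. Of the other genes with higher values in THOC5 cells in growth medium, Gdf6 was at 2.9, Scg2 at 2.99, Sfrp2 at 2.91, Islr at 1.53 and Cry1 at -1.08. Of those with lower values, Ccl5 was at -0.83, Ptgs2 at -1.32, H2-K1 at 0.44, Gpr35 at 1.66 and Oas2 at 1.21.

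The 5 highest genes by the rule were A2m, a protease inhibitor of plasma, at 5.22, Clca3a2 at 4.57, Serpina3i at 3.92, Kif26b at 3.79 and Hp, which encodes haptoglobin, at 3.5. In growth medium A2m stood at 435 and 691 in GFP cells and 365 and 788 in THOC5 cells, so its groups overlapped there. The lowest genes included Slc7a11, the cystine importer, at -4.44, Atf3, a stress-induced transcription factor, at -2.81, Gsta3 at -2.66 and Psph at -2.49.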

How the results depend on the processing

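Thoc5 was higher in THOC5 cells under every alternative run, and its call depended on how the spread was estimated. The log2 difference stayed at 1.90 and 0 genes passed when genes with any value above 0 were tested (adjusted p = 0.377, 1660 genes at an unadjusted p below 0.05), in the 4 growth-medium libraries alone (0.934, 867 genes) and without both GFP osteogenic libraries (0.0720, 1131 genes), an alternative chosen after seeing the data. Leaving out 1 library at a time gave a log2 difference of 1.60 to 2.21 and 0 to 1 genes called, 0 to 1 higher and 0 lower. edgeR (adjusted p = 4.39e-06) and DESeq2 (4.08e-28) on recovered reads each called Thoc5 alone, with 815 and 218 genes at an unadjusted p below 0.05. Without limma's trend 99 genes passed, 19 higher and 80 lower, of which 98 had a mean under 10 counts.

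The replicate block in the fit of all 8 libraries left 1 gene called (adjusted p = 0.00106). The replicate block in the 4 growth-medium libraries, which leaves 1 residual degree of freedom, called 148 of 20786 genes, 86 higher and 62 lower. Of these 140 had a mean of at least 50, and 50 were among the 179 named genes tested besides Thoc5. Many named genes were picked by a small p in the same libraries, so a larger share of them is built in. The block also changed the count of members called in 26 lists. Deviations of same-numbered libraries from their group means correlated at 0.402 between the growth-medium groups and at -0.188 to 0.136 between the other pairs of groups. The values of the other pairs do not bear on pairing within growth medium. The labels name no batch, and the main fit did not pair the libraries. Whether same-numbered growth-medium libraries were handled together was not tested.

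The difference between media passed for 1122 genes with any value above 0 tested (699 higher, 423 lower), for 172 without the trend (118 higher, 54 lower) and for 2238 with the replicate block. Scaling to totals gave 1381 lower and 887 higher. Leaving out 1 library gave 372 to 1938 genes, 271 to 1185 higher and 101 to 766 lower, the lowest without the second THOC5 osteogenic library. The 2 libraries a group and low counts limit what can be seen for genes under 50 normalized counts.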
